A study of Mus musculus with 7 samples.

Results

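Deubiquitinases are proteases that take ubiquitin off proteins or cut ubiquitin chains. The transcripts of the USP, OTU and UCH families were followed in left ventricles of mice with a missense change in titin, the giant spring protein of the sarcomere. The members were all genes whose mouse symbol starts with Usp, Otud, Otub or Uchl followed by a number or letter. *Usp18*, a protease for the ubiquitin-like protein ISG15, and antisense names were left out. This gave 70 names, of which 56 had at least 10 counts in at least 3 libraries, out of 13894 genes that passed the same minimum.

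RNA-seq libraries of poly(A)+ RNA were made from whole left ventricles of 3 WT mice and of 4 mice homozygous for titin A178D, all on C57BL/6J, 1 library per heart. The A178D allele was knocked into *Ttn* by CRISPR-Cas9 editing of C57BL/6N embryonic stem cells, followed by backcrossing, and carries a silent marker change as well. It alters the part of titin that binds telethonin at the Z-disc, and homozygous mice develop a mild dilated cardiomyopathy. Sample labels give neither age nor sex. The Y-linked genes *Ddx3y*, *Eif2s3y*, *Kdm5d* and *Uty* were counted in every library, as in males. Gene counts cannot show the base change itself. Total counts were 51797208, 54245530 and 41102868 in WT replicates 1, 3 and 4, and 40623300, 52345529, 42174448 and 33080675 in A178D replicates 1 to 4.

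Ubiquitin is attached by a relay of enzymes, and chains of it mark proteins for the proteasome, for lysosomes or for signalling complexes. USP enzymes, the largest deubiquitinase family, often recognise particular substrates, whereas many OTU enzymes prefer particular chain types, and UCH enzymes favour small tails on ubiquitin. Cardiomyocytes renew their sarcomere proteins throughout life and depend on the proteasome to do so, and deubiquitinases at the proteasome recycle ubiquitin before a substrate is degraded.

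A178D replicate 4, the shallowest library, stood apart from the other hearts in these genes. It held the lowest CPM (edgeR's scaled counts, with library sizes adjusted by TMM) of 25 of the 56 members, or 44.6%, against 24.3% of all tested genes. Its members lay at a median of -0.09 log2 units from each gene's mean over the hearts, whereas the other 6 hearts lay between -0.02 and 0.04. Its summed member CPM was 3268, against 3427 to 3636 in WT and 3595 to 3612 in the other A178D hearts. After removal of the trends that libraries showed with transcript length and GC content, the deviation of A178D replicate 4 was -0.02. Deubiquitinase transcripts are long: the longest transcript of each member had a median of 4716 bases, against 3438 bases over all tested genes. Merged exons of all transcripts had a median of 6948 bases, against 4478 bases. Across the 56 members, log2 fold change and transcript length had a Spearman correlation of -0.28, the same as across all tested genes. With the trends removed it was 0.022. The trends were fitted on transcript length, so this drop was largely built in. Their removal also takes out any genotype difference that goes with length. Genes are not independent replicates, so these correlations describe the libraries only.

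In A178D hearts *Uchl1* was upregulated and *Usp54* downregulated, and no other member passed the test. With edgeR's quasi-likelihood test and a Benjamini-Hochberg adjusted p under 0.05, 1 member was higher and 1 was lower, against 1.04% and 1.31% of all tested genes. At an unadjusted p under 0.05, 3 members were higher (*Uchl1*, *Uchl3* and *Usp20*) and 6 lower (*Usp54*, *Otud1*, *Usp31*, *Usp33*, *Usp48* and *Uchl5*), against 7.93% and 8.81% of all genes. WT and A178D hearts did not overlap in 2 members that were higher (*Uchl1* and *Usp20*) and 7 that were lower, the same 6 genes and *Usp7*, against 7.61% and 8.52% of all genes. Non-overlapping members that were higher numbered 7 without WT replicate 1 (12.5%, against 13.1% of all genes) and 8 without A178D replicate 4 (14.3%, against 10.5%). With length and GC trends removed, 8 were higher (14.3%, against 8.17% of all genes) and 6 lower (10.7%, against 9.12%). Without A178D replicate 2, 4 were higher (7.14%, against 10.6%), and without WT replicate 3, 12 were lower (21.4%, against 12.4% of all genes).

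The median log2 fold change of the members was -0.02, with 32 below 0 and 24 above, against a median of 0.00 over all genes. It turned to 0.02 with length and GC trends removed, when 32 members were above 0, and was also above 0 without WT replicate 1, WT replicate 4 or A178D replicate 4. The median was further below 0 with replicate number as a block (-0.045) and without A178D replicate 2 (-0.036). Fold changes ran from -0.51 (*Otud1*) to 0.66 (*Uchl1*) on the log2 scale. For 30 members (53.6%) the log2 fold change was smaller than 0.1 in either direction, against 41.8% of all tested genes. The 95% confidence interval lay within 0.5 log2 units of 0 for 49 members and within 0.3 for 27.

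**Figure D1:**
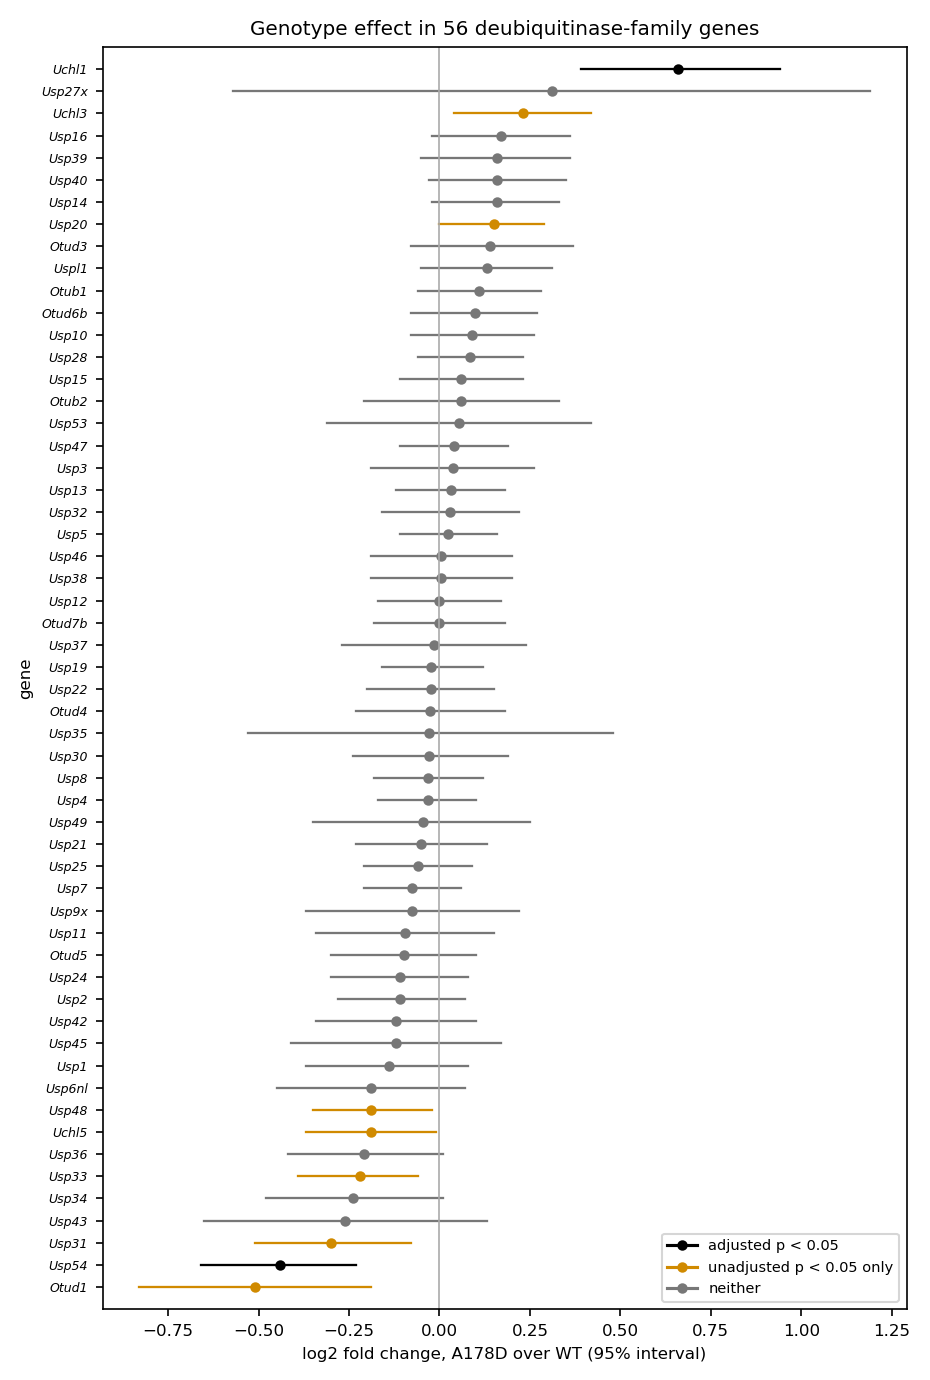
Log2 fold change of A178D over WT for the 56 members, with 95% confidence intervals from edgeR's fit over 3 WT and 4 A178D hearts. *Uchl1* at 0.66 and *Usp54* at -0.44 are the 2 members past the adjusted threshold, drawn in black.

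*Uchl1* encodes a ubiquitin hydrolase best known from neurons, where it is among the most abundant proteins and keeps up the pool of free ubiquitin. Its level was 7.63, 10.3 and 7.92 CPM in WT replicates 1, 3 and 4, and 12.9, 12.4, 14 and 15.4 CPM in A178D replicates 1 to 4. WT and A178D hearts did not overlap, and WT replicate 3 came closest to the A178D range. The means were 8.61 ± 1.45 CPM (SD, n = 3) and 13.7 ± 1.33 CPM (SD, n = 4). *Uchl1* was upregulated by 0.66 on the log2 scale (SE 0.13; edgeR, adjusted p 0.017). Without WT replicate 4 the log2 fold change was 0.61 and the adjusted p from edgeR 0.0934, and the call held when any other single heart was left out. The gene (ENSMUSG00000029223) lies on GRCm38 chromosome 5, from 66676091 to 66687234 on the plus strand. An annotated antisense gene, *Uchl1os*, shares 295 exon bases with it, and whether the counting used strand is not given in the sources used here, so reads of the pair cannot be told apart.

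Neuronal markers were low in these ventricles. Of 10 markers 4 passed the count minimum, and edgeR called none, with none at an unadjusted p under 0.05 and none called by DESeq2 or limma-voom. Their summed level was 13.5, 14.2 and 15.5 CPM in WT replicates 1, 3 and 4, and 13.7, 13.8, 13.2 and 17.8 CPM in A178D replicates 1 to 4. The genotypes overlapped in this sum. *Stmn2*, a microtubule regulator of growing axons and the most abundant of them, had a log2 fold change of -0.15. *Tubb3*, neuronal tubulin, stood at 0.52 with an unadjusted p of 0.0552 from edgeR, at 0.954 to 1.38 CPM in WT and 1.45 to 1.98 CPM in A178D hearts, which did not overlap, in the same direction as *Uchl1*. *Th*, *Snap25* and *Npy* had 0 to 2 counts in every library. All 8 Schwann cell markers were tested and had a median log2 fold change of 0.30, and again edgeR, DESeq2 and limma-voom called none, with none at an unadjusted p under 0.05. Their sum was 24.7, 32.0 and 26.3 CPM in WT and 26.6, 28.9, 30.6 and 34.3 CPM in A178D hearts. The cells that carried the additional *Uchl1* RNA were not identified, and in whole tissue more cells of a type and more RNA per cell cannot be told apart.

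*Usp54* is a USP family member related to *Usp53*, whose protein is found at tight junctions. Its level was 57.7, 67.3 and 71.8 CPM in WT replicates 1, 3 and 4, and 49.7, 52.2, 50.7 and 40.1 CPM in A178D replicates 1 to 4. All A178D hearts lay below all WT hearts, with A178D replicate 4 lowest and WT replicate 1 nearest to the A178D range. The means were 65.6 ± 7.18 CPM (SD, n = 3) and 48.2 ± 5.47 CPM (SD, n = 4). This gave a log2 fold change of -0.44 (SE 0.099; edgeR, adjusted p 0.0337). The call was lost in edgeR without WT replicate 3 (adjusted p 0.167), WT replicate 4 (0.163), A178D replicate 1 (0.089) or A178D replicate 3 (0.0637), while the log2 fold change stayed between -0.53 and -0.37. The gene (ENSMUSG00000034235) spans 20548912 to 20641063 on the minus strand of chromosome 14 and shares 580 and 55 exon bases with a pair of annotated antisense genes. *Usp53* had a log2 fold change of 0.05, which was 0.22 without A178D replicate 4 and 0.13 with length and GC trends removed. The FPKM ratio of *Usp54* to *Usp53* was 8.46, 9.27 and 9.32 in WT hearts and 5.78, 6.03, 6.34 and 8.49 in A178D hearts. The ratio overlapped between genotypes because A178D replicate 4, where *Usp53* was at 6.55 CPM, reached the lowest WT ratio.

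**Figure D2:**
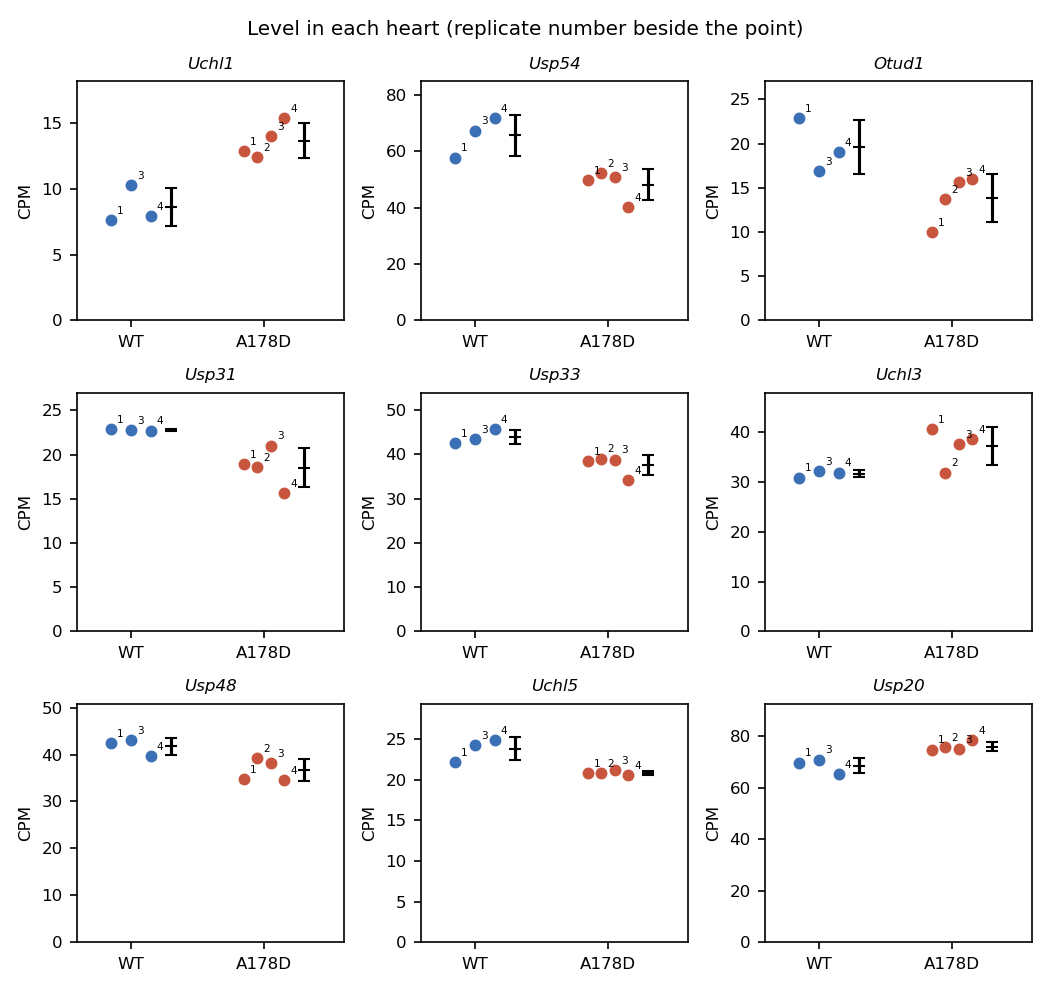
CPM of the 9 members with an unadjusted p under 0.05 in each heart, with the replicate number beside each point and the mean ± SD of the 3 WT and 4 A178D hearts as bars. *Uchl1*, *Usp54*, *Otud1*, *Usp31*, *Usp33*, *Usp48*, *Uchl5* and *Usp20* show no overlap between genotypes, and *Uchl3* overlaps through A178D replicate 2.

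*Otud1*, an OTU enzyme that prefers ubiquitin chains joined through lysine 63, showed the lowest log2 fold change of the family with all hearts included. WT replicates 1, 3 and 4 had 22.9, 16.9 and 19.0 CPM, and A178D replicates 1 to 4 had 9.99, 13.7, 15.6 and 16.0 CPM. The genotypes did not overlap, although A178D replicate 4 and WT replicate 3 lay close together. A log2 fold change of -0.51 (SE 0.15) came with an adjusted p of 0.101 by edgeR, 0.089 by limma-voom and 0.03 by DESeq2. Over all 16 alternatives its adjusted p ran from 0.03 to 0.259, and DESeq2 alone called it. Without WT replicate 1 *Otud1* was at -0.38 and *Usp54* at -0.53, and without A178D replicate 1 they were at -0.38 and -0.46.

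*Usp31*, described as a regulator of NF-κB signalling, had 22.9, 22.8 and 22.7 CPM in WT and 18.9, 18.6, 21 and 15.6 CPM in A178D hearts. WT hearts were nearly identical and A178D hearts lay below them over a wide range. Its log2 fold change was -0.30 (SE 0.10; edgeR, adjusted p 0.152), and -0.19 with length and GC trends removed. *Usp48*, a mainly nuclear enzyme, had 42.5, 43.1 and 39.6 CPM in WT and 34.8, 39.2, 38.2 and 34.6 CPM in A178D hearts. WT replicate 4 was separated from A178D replicate 2 by less than the SD of either genotype. The log2 fold change was -0.19, with an adjusted p of 0.253 from edgeR. *Usp7*, which stabilises Mdm2 and p53, had hearts that did not overlap, but its log2 fold change was only -0.08 (edgeR, adjusted p 0.584), and -0.04 with the trends removed.

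*Usp20* and *Usp33* are close relatives that act on, among other proteins, the β2-adrenergic receptor after its uptake. *Usp20* was at 69.8, 71.0 and 65.2 CPM in WT and at 74.8, 75.7, 74.9 and 78.6 CPM in A178D hearts. *Usp33* was at 42.5, 43.4 and 45.7 CPM in WT and at 38.5, 39.0, 38.8 and 34.2 CPM in A178D hearts. Neither gene overlapped between genotypes, and they differed in opposite directions. The log2 fold changes were 0.15 (SE 0.067) and -0.22 (SE 0.077), with adjusted p-values from edgeR of 0.29 and 0.167, so neither passed. The FPKM ratio of *Usp20* to *Usp33* was 1.76, 1.76 and 1.53 in WT hearts and 2.09, 2.08, 2.07 and 2.47 in A178D hearts. A178D hearts were all above WT hearts in this ratio, which follows from the lack of overlap in both genes and adds nothing to it. The CPM sum of the pair was 111 to 114 in WT and 113 to 115 in A178D hearts. The ratio was looked at after the values of both genes were seen and was not tested.

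Of the UCH enzymes, 4 carry a Uchl name, and 3 of these were measurable. *Uchl3*, which also removes the ubiquitin-like NEDD8, was at 30.9, 32.2 and 31.9 CPM in WT and 40.7, 31.9, 37.7 and 38.6 CPM in A178D hearts. A178D replicate 2 lay within the WT range and the other 3 above it. Its log2 fold change was 0.23 (SE 0.089), and edgeR's adjusted p was 0.21. *Uchl4*, a near-identical copy of *Uchl3*, had 0 to 12 counts and reached 10 in 2 libraries, so it fell just outside the count minimum, and reads of the pair may be split between them. Per length, *Uchl1* stood at 0.58, 0.749 and 0.583 of the *Uchl3* FPKM in WT hearts and at 0.746, 0.912, 0.87 and 0.937 in A178D hearts. The ranges overlapped at WT replicate 3 and A178D replicate 1.

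*Usp14* and *Uchl5* are the USP and UCH enzymes that bind the proteasome reversibly, where they trim ubiquitin from substrates. *Usp14* was at 86.2, 72.7 and 80.3 CPM in WT and 95.8, 91.6, 87.2 and 81.2 CPM in A178D hearts. A178D replicate 4 lay inside the WT range and the other A178D hearts above it. *Uchl5* was at 22.2, 24.3 and 24.9 CPM in WT and 20.8, 20.8, 21.2 and 20.6 CPM in A178D hearts, with no overlap and little spread in the A178D hearts. The log2 fold changes were 0.16 (SE 0.081) and -0.19 (SE 0.082), and edgeR gave adjusted p-values of 0.347 and 0.261. Without WT replicate 3 the log2 fold change of *Usp14* was 0.10. The FPKM ratio of *Usp14* to *Uchl5* was 1.36, 1.05 and 1.13 in WT and 1.61, 1.54, 1.44 and 1.38 in A178D hearts. It was higher in every A178D heart, by a narrow margin between WT replicate 1 and A178D replicate 4, was chosen after the values were seen and was not tested. *Usp14* shares 2169 exon bases with *Thoc1* on the opposite strand, whose log2 fold change was -0.06. *Psmd14*, the metalloprotease of the proteasome lid, had a log2 fold change of 0.13 (edgeR, adjusted p 0.378).

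Levels were compared between members as FPKM, here CPM per kilobase of merged exons. Merged exons join all annotated transcripts of a gene. Their median was 6948 bases over the members, against 4716 for the longest transcript, so differences between genes also depend on annotation. FPKM covered a 326-fold range from 0.14 (*Usp27x*) to 45.9 (*Usp13*), with a median of 5.99 over the 56 genes. The 5 highest, *Usp13*, *Usp2*, *Usp28*, *Otud6b* and *Usp19*, made up 32.7% of the summed FPKM. *Usp13* led in all 7 hearts with 45.9 ± 2.44 FPKM (SD, n = 7). *Usp13* is the close relative of *Usp5*, the enzyme that takes apart unanchored ubiquitin chains, and *Usp5* stood at 26.8 FPKM. The *Usp5* to *Usp13* ratio was 0.581, 0.61 and 0.567 in WT and 0.557, 0.556, 0.556 and 0.676 in A178D hearts. A178D replicates 1 to 3 lay below the WT range and A178D replicate 4 above it.

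*Usp2*, an output gene of the circadian clock, followed *Usp13* at 35.2 FPKM. It had 180, 167 and 183 CPM in WT and 142, 163, 180 and 171 CPM in A178D hearts. The hearts overlapped, with A178D replicate 1 lowest, and the labels give no time of tissue collection. The log2 fold change was -0.11 with an adjusted p of 0.553 from edgeR. *Usp28*, which stabilises c-Myc, came next with 34.1 FPKM but exceeded *Usp2* in 2 of 7 hearts, so that the order of the pair did not exceed their spread. *Otud6b*, *Usp19* and *Usp5*, at 29.0, 27.4 and 26.8 FPKM, likewise changed places between hearts. *Otub1*, which also inhibits ubiquitin-conjugating enzymes without cutting, stood at 24.1 FPKM. *Usp25*, the relative of *Usp28*, *Usp47*, an enzyme of base excision repair, and *Usp8*, which sorts receptors at endosomes, completed the 10 highest at 17.1, 16.0 and 14.5 FPKM. In all, 38 of 55 gaps between neighbours in this order were smaller than the SD over hearts. None of these 10 genes was called by edgeR, DESeq2 or limma-voom or reached an unadjusted p under 0.05, a count of 0 by each, and their log2 fold changes ran from -0.11 (*Usp2*) to 0.11 (*Otub1*). *Usp2* was at -0.04 without A178D replicate 1, and *Otub1* at 0.04 without A178D replicate 4 and 0.03 with length and GC trends removed.

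**Figure D3:**
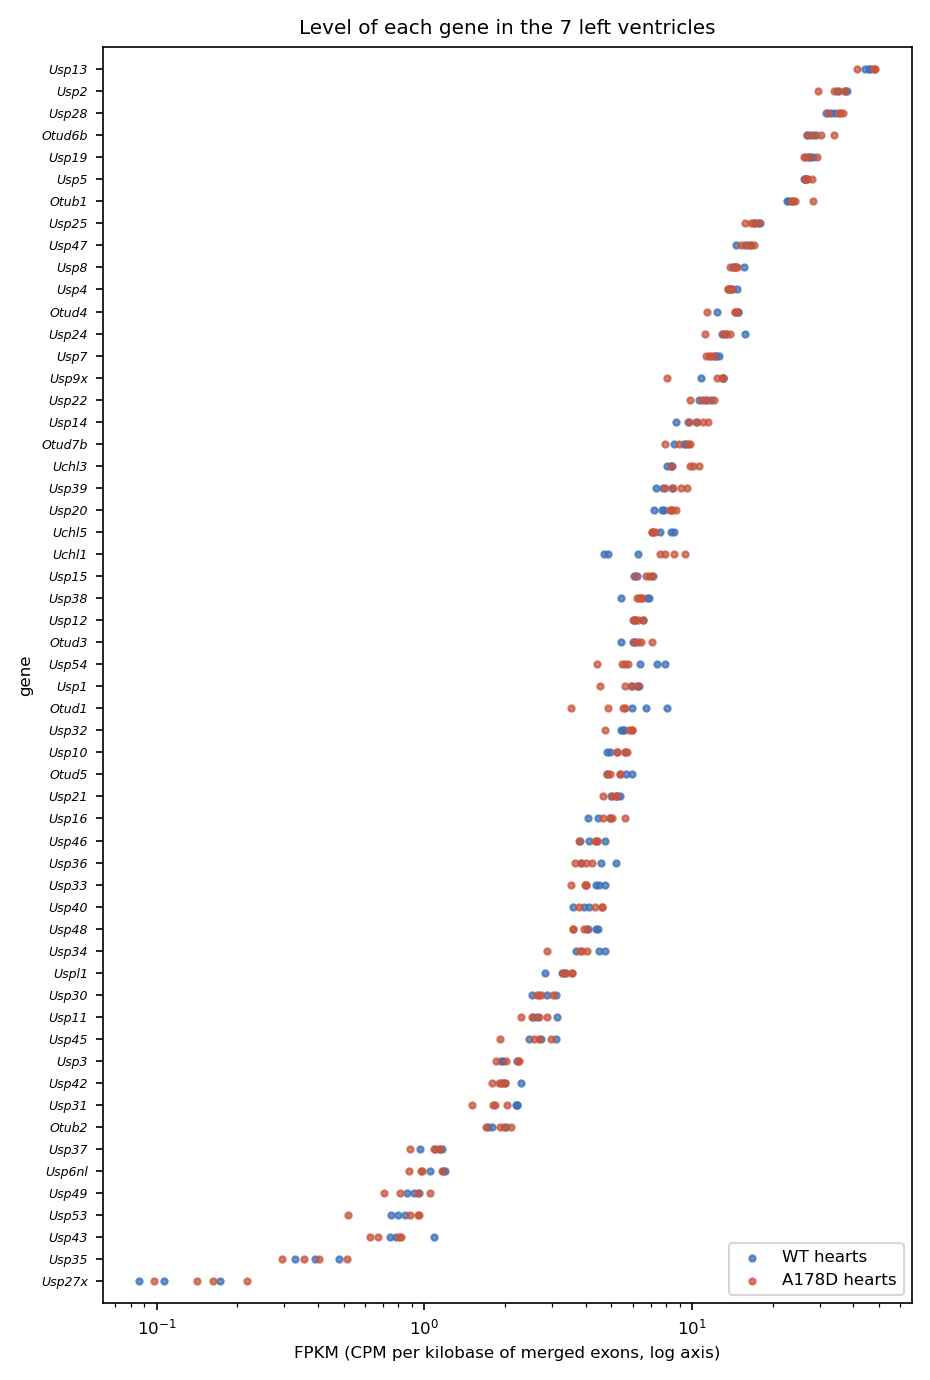
FPKM of the 56 members in each of the 3 WT and 4 A178D hearts on a log axis, ordered by the mean. *Usp13* is highest at 45.9 and *Usp27x* lowest at 0.14, and the points of neighbouring genes mostly overlap.

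Other paralogues showed small differences between the genotypes. *Usp4*, *Usp11* and *Usp15*, which share an N-terminal DUSP domain, had log2 fold changes of -0.03, -0.10 and 0.06, with *Usp15* at 0.20 with length and GC trends removed. *Usp12*, *Usp46* and *Usp1* are activated by the cofactor *Wdr48*, and their log2 fold changes ranged from -0.14 (*Usp1*) to 0.01 (*Usp46*), beside -0.01 for *Wdr48*. *Usp1* was at -0.06 without A178D replicate 4, and *Usp46* at 0.06 without it and 0.05 with the trends removed. The *Usp12* to *Usp46* ratio averaged 1.49 ± 0.18 in WT (SD, n = 3) and 1.48 ± 0.0957 in A178D hearts (SD, n = 4). *Usp25* and *Usp28* had -0.06 and 0.08, with *Usp25* at -0.03 without A178D replicate 4 and -0.02 with length and GC trends removed, and *Usp28* at 0.06 without WT replicate 4. Their FPKM ratio was 0.499, 0.546 and 0.551 in WT and 0.469, 0.468, 0.498 and 0.489 in A178D hearts. This ratio was lower in every A178D heart than in any WT heart, with WT replicate 1 and A178D replicate 3 almost equal, and was not tested. Both trios and the pair held no call by edgeR, DESeq2 or limma-voom, a count of 0, and 0 members at an unadjusted p under 0.05.

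The giant USP enzymes *Usp9x*, *Usp24* and *Usp34* had log2 fold changes of -0.08, -0.11 and -0.24, and none was called by any tool or had an unadjusted p under 0.05. *Usp9x*, encoded on the X chromosome, had 195, 162 and 196 CPM in WT and 187, 194, 197 and 121 CPM in A178D hearts. A178D replicate 4 was far below all other hearts, and without it the log2 fold change was 0.06. With length and GC trends removed it was also 0.06, and the values for *Usp24* and *Usp34* were 0.01 and -0.10, against -0.05 and -0.14 without A178D replicate 4. *Usp9y*, the Y-linked copy, was listed at 0 in all 7 libraries, although *Ddx3y*, *Eif2s3y*, *Kdm5d* and *Uty* were counted in each of them. *Usp34* shares 2137 exon bases with *Ahsa2*, which had a log2 fold change of 0.20.

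Of 8 histone deubiquitinase names 6 passed the count minimum, with a median log2 fold change of 0.01, and 0.06 with length and GC trends removed. None was called by edgeR, DESeq2 or limma-voom, a count of 0, and 0 had an unadjusted p under 0.05. *Usp22*, the ubiquitin protease of the SAGA coactivator complex, was the most abundant in CPM, with 54.9 ± 2.92 CPM in WT (SD, n = 3) and 54.0 ± 4.65 CPM in A178D hearts (SD, n = 4). *Usp16*, which acts on histone H2A, had a log2 fold change of 0.17 (edgeR, adjusted p 0.363). *Usp27x* lay just inside the count minimum with 15 to 40 counts, and its log2 fold change of 0.31 had a confidence interval from -0.57 to 1.19. Without A178D replicate 4 the value for *Usp27x* was 0.12.

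Membrane and organelle enzymes had overlapping hearts throughout. *Usp8*, *Usp19*, which is anchored in the endoplasmic reticulum and studied in muscle wasting, and *Usp30*, which opposes Parkin on mitochondria, had log2 fold changes between -0.03 and -0.02. Their signs depended on the setting: *Usp19* was at 0.01 with length and GC trends removed, and *Usp8* and *Usp30* were at 0.01 and 0.04 without WT replicate 4. Of the 10 OTU names 8 were measurable, with a median log2 fold change of 0.03, and 0.05 with the trends removed, and *Otud1* alone was past an unadjusted p of 0.05. *Usp39*, a splicing factor without protease activity, *Uspl1*, a SUMO protease, and *Usp6nl*, a GTPase-activating protein for Rab proteins, match the naming rule but do not cut ubiquitin. Their log2 fold changes were 0.16, 0.13 and -0.19, with *Uspl1* at 0.05 without WT replicate 3 and *Usp6nl* at -0.11 with length and GC trends removed. These 2 groups of 3 genes held 0 calls by edgeR, DESeq2 or limma-voom and 0 genes at an unadjusted p under 0.05.

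Names below the count minimum numbered 14. *Otud6a*, *Usp17ld*, *Usp26*, *Usp29*, *Usp44* and *Usp9y* were listed at 0 in every library, which allows up to 0.055 to 0.091 CPM in a single library at a floor of 3 counts, for counting error alone. The other 8, *Otud7a*, *Uchl4*, *Usp17la*, *Usp17lb*, *Usp17lc*, *Usp17le*, *Usp50* and *Usp51*, had at most 12 counts. The *Usp17l* genes are near-identical copies of one another, and reads that match several of them may not have been counted.

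**Figure D4:**
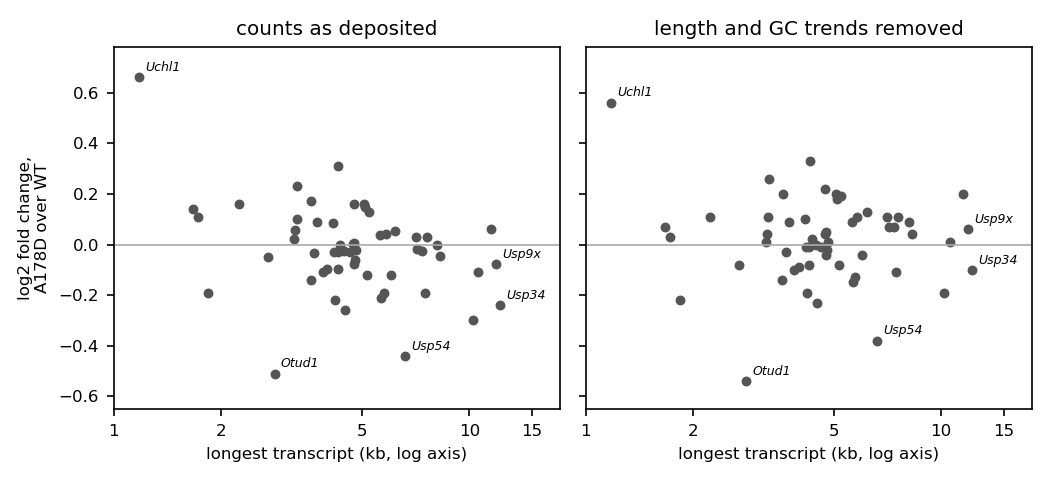
Log2 fold change of A178D over WT against the length of the longest transcript on a log axis for the 56 members, with the counts as deposited (left) and with each library's length and GC trends removed (right). *Uchl1* stays at 0.56 and *Usp54* at -0.38 on the right, while *Usp9x* moves from -0.08 to 0.06.

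Other enzymes that remove ubiquitin or its relatives, and the genes that work with them, were examined as 6 lists with 56 tested genes. By edgeR the number called was 0, as by DESeq2 and limma-voom, and 3 genes were higher (5.36%) and 4 lower (7.14%) at an unadjusted p under 0.05, against 7.93% and 8.81% of all tested genes. With length and GC trends removed edgeR called 1, *G3bp1*, at a log2 fold change of 0.22 and an adjusted p of 0.0356. *Josd2*, a Josephin-domain deubiquitinase, was at 57.3, 60.6 and 56 CPM in WT and 68.6, 65.9, 62.5 and 77.2 CPM in A178D hearts. All A178D hearts were higher, and the log2 fold change was 0.24 with an adjusted p of 0.154 from edgeR. Its relative *Atxn3*, the protein of spinocerebellar ataxia, was at -0.19, and *Zup1*, which cuts long lysine 63 chains, at -0.18. *Senp8*, the NEDD8 protease, was at -0.26, and the SUMO proteases *Senp1* and *Senp3* at -0.17 and 0.09.

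Partners of the members gave similarly small values. *Atxn7* and *Atxn7l3b*, which belong to or compete with the deubiquitinase module around *Usp22*, were at -0.24 and -0.19, and *G3bp1*, the stress granule protein that binds *Usp10*, was at 0.15. The OTU enzymes *Otulin*, *Zranb1* and *Yod1* were at 0.15, -0.11 and -0.22, and *Psmd7* and *Stambpl1* of the JAMM metalloproteases were at 0.13 and 0.31. *Stambpl1* overlapped between genotypes, with 3.37, 2.62 and 1.94 CPM in WT replicates 1, 3 and 4 and 2.88 to 3.61 CPM in A178D hearts. Of the genes that encode ubiquitin, *Rps27a* was at 0.18 and *Ubb* at 0.30.

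Markers of other cell types differed between the genotypes beside these values. Among smooth muscle and pericyte markers 4 of 8 were called lower by edgeR (*Acta2*, *Tagln*, *Myh11* and *Cnn1*), with a median log2 fold change of -0.46 for the list. The sum of the list was 1327, 1358 and 1332 CPM in WT and 1035, 1124, 1194 and 948 CPM in A178D hearts, led by *Abcc9*, and every marker was tested. WT hearts were all above A178D hearts, in the same direction as *Usp54*, and the part of smooth muscle in that difference was not tested. Among 7 fibroblast markers edgeR called *Col3a1* higher and DESeq2 called 2, and 4 (*Col1a1*, *Col1a2*, *Col3a1* and *Lum*) did not overlap between genotypes and were higher at an unadjusted p under 0.05. With length and GC trends removed 3 were called. The list had a median log2 fold change of 0.19 and sums of 1130, 1161 and 1050 CPM in WT and 1365, 1289, 1236 and 1254 CPM in A178D hearts, led by *Dcn*. *Dcn*, *Pdgfra* and *Tcf21* overlapped between genotypes, with log2 fold changes of 0.00, -0.06 and 0.04, and *Dcn* averaged 579 CPM in WT and 580 CPM in A178D hearts. A178D hearts were all higher in the summed list, as in *Uchl1*, and the part of fibroblasts in *Uchl1* was not tested. Of 5 atrial genes 2 were tested, and *Nppa*, which rises in stressed ventricles, was called higher at a log2 fold change of 1.31, while *Myl4*, the atrial light chain, was at 0.65 with an unadjusted p of 0.0134 from edgeR. Neither overlapped between genotypes, with *Myl4* at 1.85 to 1.90 CPM in WT and 2.14 to 4.01 CPM in A178D hearts, and *Bmp10* was at 0 throughout.

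Lists without a call by edgeR covered 49 genes, with 4 higher (8.16%) and 1 lower (2.04%) at an unadjusted p under 0.05, against 7.93% and 8.81% of all tested genes. In these lists DESeq2 called 2 genes and limma-voom 0. Both DESeq2 calls were macrophage markers that were higher in A178D hearts, *Adgre1* (log2 fold change 0.33) and *C1qb* (0.50), and 3 macrophage markers were higher at an unadjusted p under 0.05 by edgeR and 1 lower. The summed macrophage markers, led by *Csf1r* and all above 0 counts, were at 218, 291 and 252 CPM in WT and 284, 298, 262 and 291 CPM in A178D hearts. The genotypes overlapped in this sum through WT replicate 3, and the part of macrophages in *Uchl1* was not tested. Besides neurons and Schwann cells these were cardiomyocytes (median log2 fold change -0.02, 8 of 8 tested), endothelium (0.03, 7 of 7), macrophages (0.20, 8 of 8), adipocytes (-0.23, 5 of 6), skeletal muscle (-0.14, 5 of 8) and Y-linked genes (-0.10, 4 of 4 in the table). With length and GC trends removed the medians were -0.05, -0.04, 0.13, -0.29, -0.19 and -0.02 in the same order, so that of endothelium changed sign. Cardiomyocyte markers were high in every heart, with sums of 91509 to 99792 CPM.

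Promoter sequences were taken from RefSeq (GRCm38.p6) as windows of 300 bases around each annotated start, and 43 of 56 members matched, with 47 windows. Windows of the family were rich in CG dinucleotides, with a median of 28 against 7 over all 32851 windows. The window of *Uchl1* held 9, close to the median of all windows, and that of *Usp54* held 5. Other members had windows as low, since *Otub2*, *Usp6nl*, *Usp10* and *Usp11*, none of them called, each had a window with 3 to 8. *Usp6nl* also had a window with 51, and *Otub2* had others with 13. In *Uchl3*, the measured relative of *Uchl1*, there were 27. The windows of the called genes are shown because the results turn on them, and that of *Uchl3* for comparison. The *Usp54* window lies at an internal start, and the gene's 5′ end at 20641063 is upstream of it. Capitals mark each CG, and sequences run 5′ to 3′ on the gene's strand, at chr5:66675871-66676170 (plus), chr14:20618305-20618604 (minus) and chr14:101653717-101654016 (plus).
Uchl1: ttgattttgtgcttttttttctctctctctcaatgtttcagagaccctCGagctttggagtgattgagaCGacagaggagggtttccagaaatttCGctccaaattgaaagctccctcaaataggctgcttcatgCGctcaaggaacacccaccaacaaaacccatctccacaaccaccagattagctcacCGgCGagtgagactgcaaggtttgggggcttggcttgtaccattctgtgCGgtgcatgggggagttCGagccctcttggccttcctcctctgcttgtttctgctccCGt
Usp54: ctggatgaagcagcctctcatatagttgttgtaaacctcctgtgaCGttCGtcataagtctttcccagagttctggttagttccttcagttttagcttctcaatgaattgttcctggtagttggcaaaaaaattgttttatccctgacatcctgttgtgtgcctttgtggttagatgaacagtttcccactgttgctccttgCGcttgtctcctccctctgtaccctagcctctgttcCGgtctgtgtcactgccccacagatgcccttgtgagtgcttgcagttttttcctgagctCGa
Uchl3: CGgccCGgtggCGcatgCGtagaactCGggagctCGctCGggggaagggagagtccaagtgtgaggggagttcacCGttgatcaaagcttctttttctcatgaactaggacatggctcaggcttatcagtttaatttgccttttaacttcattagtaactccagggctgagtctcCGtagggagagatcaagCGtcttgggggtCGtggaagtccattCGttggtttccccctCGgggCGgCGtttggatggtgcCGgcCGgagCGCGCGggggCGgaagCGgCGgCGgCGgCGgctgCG

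Both strands of the windows were searched for CACGTG, TTATGTAA, TGACGTCA and TATAAA, sequences bound by E-box, PAR bZIP and CREB factors and by the TATA-binding protein. CACGTG was in 7 of the 47 member windows (*Otud1*, *Otud3*, *Usp16*, *Usp31*, *Usp32*, *Usp4* and *Usp6nl*), against 7.15% of all windows. TATAAA was in those of *Usp19* and *Usp40*, against 13.6% of all windows. TTATGTAA and TGACGTCA, present in 0.938% and 1.79% of all windows, were in 0 member windows. The windows of *Uchl1*, *Usp54* and *Uchl3* held none of the 4 sequences. A match or its absence describes the letters of a window only.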

How the data were processed

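The 7 libraries (TruSeq Stranded mRNA, paired ends) were analysed from the raw gene counts that the authors deposited. Their table of normalized values and their own comparison were not used. The submitters' processing notes list bcl2fastq 2.18.0.12, HISAT2 2.1.0, SAMtools 1.6, DESeq2 1.26.0 and GRCm38. The counting program and strand setting are not given in the sources used here. Of 21257 entries, 223 were dropped as copies within 219 groups of 30 or more counts that matched across all libraries. A further 107 sparse entries duplicated an identifier together with its values, leaving 20927. Names, lengths and positions came from GENCODE M21, and 87 entries had no name. The test covered the 13894 genes that reached 10 counts in 3 or more libraries (99.986% of counts), with edgeR 4.0.16 in R 4.3.3, TMM, no covariate and Benjamini-Hochberg adjustment over all genes. Alternatives used DESeq2 1.42.0, limma 3.58.1 and, for length and GC offsets, mgcv 1.9.3. Each library is labelled as a separate left ventricle, and p-values measure the spread between these. Standard errors are on the log2 scale and cover depth and spread between hearts. Scripts were tested on simulated data. The members and gene lists were chosen with earlier results of these data known. Named members are those called or with an unadjusted p under 0.05, the 10 with the highest FPKM, members of paralogue and function groups, and a few set by name. In each pathway list up to 3 genes with the lowest p are named. Some genes of the lists are not reported here. *Usp7*, *Usp10*, *Usp32*, *Usp37* and *Usp40* fall outside the rule, and were named after their values were seen.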

Additional observations from a re-analysis of the deposited data

Results flagged for a closer look

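In 9 of the 56 members, 1 of the 4 A178D hearts lay far from the other 3, and in each it was A178D replicate 4. Chance gives such a gap in about 1 in 20 groups, and among all tested genes it was found in 6.68%, against 16.1% of the members. A178D replicate 4 was the heart concerned in 582 of the 928 genes found in all. In CPM, *Usp13* was at 315 in that heart, against 362 to 367 in the other A178D hearts. *Otub1* was at 71.8, the only one of these 9 where this heart was high, against 59.9 to 61.7. *Otud4* was at 92, against 117 to 119. *Usp9x* was at 121, against 187 to 197. *Usp32* was at 36.4, against 44.7 to 45.8. *Usp46* was at 29.6, against 34.0 to 34.6. *Usp33* was at 34.2, against 38.5 to 39.0, and *Usp37* was at 9.76, against 12.1 to 12.6. *Usp53* was at 6.55, against 11.1 to 12.0. The cause was not tested.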

How the results depend on the processing

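With DESeq2, 2 members were called lower (*Usp54* and *Otud1*), and over all genes 306 were higher and 380 lower, against 145 and 182 in the main analysis. With length and GC offsets, 228 genes were higher and 277 lower, and non-overlapping members numbered 8 higher and 6 lower, with 1135 and 1267 of all genes. At an adjusted p under 0.01, 0 members were called higher and 0 lower, and 24 and 40 genes over all. With 1 heart left out at a time, members called higher and lower each numbered 0 to 1, all genes called higher 24 to 215 and lower 32 to 238, and non-overlapping members 3 to 8 higher and 7 to 12 lower, with 1324 to 1822 and 1409 to 1848 of all genes, against 1058 and 1184 with all hearts. Of 25 named members followed through every alternative, signs turned for *Usp19* (0.0064 with offsets), *Usp9x* (0.059 with offsets; -0.16 to 0.063 with 1 heart left out, above 0 without A178D replicate 4), *Usp47* (-0.0073 to 0.086, below 0 without WT replicate 3), *Usp8* (-0.057 to 0.011) and *Usp30* (-0.10 to 0.043), both above 0 without WT replicate 4. The cause was not tested. Apart from these 6 cases, the values of the 25 members kept their direction, in 411 cases with the same call, 7 with a call lost and 1 gained. Over all 56 members, 8 signs turned with offsets, also those of *Otud4*, *Otud7b*, *Usp12*, *Usp24*, *Usp37* and *Usp49*. Same-numbered hearts had correlations of 0.00313, -0.0402 and -0.0424 in their deviations, within the range of differently numbered hearts (-0.07 to 0.066). These values show no pairing by replicate number. With 3 and 4 hearts they cannot decide whether some hearts shared a batch, and the labels name none. With the replicate block, where A178D replicate 2 has no partner, 124 genes were higher and 147 lower, with members at 1 and 1. The tests used 3 and 4 hearts, and leaving one out left fewer samples.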
